A study of Mus musculus with 3 samples.

Results

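The genes described here were 9 tubulins and the tubulin-binding protein stathmin, 10 of the 31053 genes in the count table of a single-cell RNA study of mouse pancreatic islets. They were 4 alpha-tubulins (Tuba1a, Tuba1b, Tuba1c and Tuba4a), 5 beta-tubulins (Tubb2a, Tubb2b, Tubb3, Tubb4b and Tubb5) and Stmn1. The members were chosen from the measured levels of these genes across cell types and libraries, above all those of S961 and control beta-like cells. Those values therefore describe the members and serve as support for nothing. All mice were male C57Bl6/J retired breeders, 7 to 8 months old, and all had an implanted pump. Control mice had pumps that held no S961, in place for 2 weeks. S961 mice were given S961, a peptide antagonist of the insulin receptor; the labels write the amount as 20 nM each week, and pumps stayed in for 2 weeks. Recovered mice, titled as S961 recovered, are labelled with the same 20 nM each week and 2 weeks of pump, and had their pumps taken out. Islets were cultured overnight, dissociated and run on the 10x Genomics 3' assay, with 1 library per group, and the labels give neither the length of recovery nor the number of mice behind each library.

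Alpha- and beta-tubulin pair into dimers, and the dimers assemble end to end into microtubules, the hollow filaments along which motor proteins carry cargo. In beta cells this cargo includes insulin granules, and the dense microtubule network of these cells is known to restrain as well as carry them. Stathmin binds free tubulin dimers and favours the shortening of microtubules. Cells are also known to hold tubulin RNA in check through free tubulin itself: the factor Ttc5 recognises the start of a newly made tubulin chain on the ribosome, and the RNA being translated is then degraded.

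Because this control reads the start of the chain, the first 30 coding bases of each member are shown, 5′ to 3′, from the GENCODE M21 annotation of GRCm38. Capitals mark the start codon, an arginine codon and a glutamate codon, a pattern written from the tubulins' own sequences.
Tuba1a: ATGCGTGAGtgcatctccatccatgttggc
Tuba1b: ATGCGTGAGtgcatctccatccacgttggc
Tuba1c: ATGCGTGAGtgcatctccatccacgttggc
Tuba4a: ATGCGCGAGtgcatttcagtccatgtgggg
Tubb2a: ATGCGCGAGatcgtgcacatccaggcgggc
Tubb2b: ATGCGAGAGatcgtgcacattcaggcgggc
Tubb3: ATGAGGGAGatcgtgcacatccaggccggc
Tubb4b: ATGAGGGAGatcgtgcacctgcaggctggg
Tubb5: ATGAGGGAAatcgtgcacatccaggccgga
Stmn1: atggcatcttctgatattcaggtgaaagag
All 9 tubulins opened with the 3 marked codons, and Stmn1 did not. The next codon was tgc in the alpha-tubulins and atc in the beta-tubulins, and it is not part of the marked pattern.

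On GRCm38, Tuba1a (chr15:98949837-98953703, minus strand), Tuba1b (chr15:98931425-98934565, minus) and Tuba1c (chr15:99029891-99038110, plus) are all on chromosome 15. Tubb2a (chr13:34074274-34078007) and Tubb2b (chr13:34126748-34130466) are both on the minus strand of chromosome 13. Tuba4a is at chr1:75214228-75219865, Tubb3 at chr8:123411424-123422015, Tubb4b at chr2:25222160-25224702, Tubb5 at chr17:35833921-35838306 and Stmn1 at chr4:134468320-134473843. All 10 are annotated as protein-coding genes. Near-identical copies make the split within these groups uncertain. The coding bases of Tuba1a and Tuba1b were 98.3% identical, and their last 300 transcript bases 55.8% identical with a shared run of 96 bases. For Tubb2a and Tubb2b the coding identity was 96.5%, and that of the last 300 bases 47.2%, with no long shared run found there. How the authors' counting treated reads that fit several copies is not given in the sources used here, so summed values are given below for both groups.

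The libraries held 38265969 (control), 47651767 (S961) and 40102058 (recovered) counts of unique molecular identifiers (UMIs, each standing for 1 captured RNA molecule). They stood apart in quality: the median barcode had 26.4% of its UMIs from mitochondrial genes in control, 5.82% in S961 and 23.1% in recovered. Cells passing the filters were clustered with the 10 members left out of the clustering genes, and clusters were named "-like" from marker genes. Beta-like cells, which carried the insulin genes at 30.8%, 33.4% and 31.2% of their UMIs, came to 2939 control, 1480 S961 and 2074 recovered cells. Their median depths were 7480, 13991.5 and 10278 UMIs. The doublet caller marked only 3 of 4270 control cells, so doublets were left nearly untouched there. Of the barcode sequences, 11 were shared by S961 and control, 11 by recovered and S961 and 29 by recovered and control. With 1 library per group no test of a condition was possible; every difference below is one between libraries, and every interval is a 95% interval that covers counting error only.

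In beta-like cells each of the 9 tubulins held a smaller share of UMIs in S961 than in control, with recovered in between. All levels here are relative to the UMIs of the class, and S961 cells had more UMIs each. Whether a cell held less tubulin RNA was not tested. Summed over the 9 tubulins, the level was 616 UMIs per 1000000 UMIs of the class (CPM) in control, 357 in S961 and 530.4 in recovered, from 13928, 7697 and 11881 UMIs. The log2 ratio was -0.79 (-0.83 to -0.74) for S961 over control, 0.57 (0.53 to 0.61) for recovered over S961 and -0.22 (-0.25 to -0.18) for recovered over control. Stmn1 ran the other way, highest in S961. Ratios that use the same library, such as the first and the second, are not independent of each other.

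Among the alpha-tubulins, Tuba1a, the isotype prominent in developing neurons, was at 132 CPM in control, 66.2 in S961 and 110.0 in recovered. Its S961 level was 1.99-fold below control (log2 ratio -0.99, -1.08 to -0.90), and its recovered level stood 0.73 (0.64 to 0.83) above S961 on the log2 scale. Tuba1b, the form most cell types make, was at 51.6, 23.4 and 43.0 CPM in control, S961 and recovered. Its S961 over control ratio of -1.14 (-1.29 to -0.99) was the lowest of the 10 members, and its recovered over S961 ratio of 0.88 (0.72 to 1.03) was the highest. Tuba4a, whose chain is made without the terminal tyrosine that other alpha-tubulins gain and lose, was at 91.6, 54.6 and 82.9 CPM, a log2 ratio of -0.74 (-0.85 to -0.64) for S961 over control. Tuba1c was scarce, at 5.61, 3.81 and 4.15 CPM from 127, 82 and 93 UMIs. Its S961 over control ratio was -0.56 (-0.98 to -0.15), and its recovered over S961 ratio of 0.12 (-0.32 to 0.57) included 0. For Tuba1a, Tuba1b and Tuba4a the S961 level was thus the low one of the 3, with intervals that did not overlap the others. Summing Tuba1a, Tuba1b and Tuba1c gave 189, 93.5 and 157 CPM and a log2 ratio of -1.01 (-1.09 to -0.94) for S961 over control. The sum does not depend on how counted reads were split among these copies. It would not restore reads left out for fitting several of them.

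Among the beta-tubulins, Tubb4b, a form found in most cell types and in cilia, was the most abundant tubulin, at 165 CPM in control, 108 in S961 and 149.6 in recovered. Its log2 ratio was -0.61 (-0.69 to -0.54) for S961 over control and 0.47 (0.40 to 0.55) for recovered over S961. Tubb5, the other broadly made beta-tubulin, was at 85.8, 45.2 and 70.1 CPM, with ratios of -0.92 (-1.04 to -0.81) and 0.63 (0.52 to 0.75). The neuron-enriched isotypes were lower in level and followed the same order of libraries. Tubb2a was at 50.7, 34.1 and 41.4 CPM, with an S961 over control ratio of -0.57 (-0.71 to -0.44). Tubb3, used widely as a marker of neurons, was at 31.6, 20.7 and 27.1 CPM, with a ratio of -0.61 (-0.78 to -0.44). Tubb2b rested on 52, 29 and 48 UMIs, at 2.30, 1.35 and 2.14 CPM, and its ratio of -0.77 (-1.48 to -0.09) carried the widest interval of the 9. Tubb2a and Tubb2b together stood at 53.0, 35.5 and 43.5 CPM, a ratio of -0.58 (-0.71 to -0.45).

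**Figure D1:**
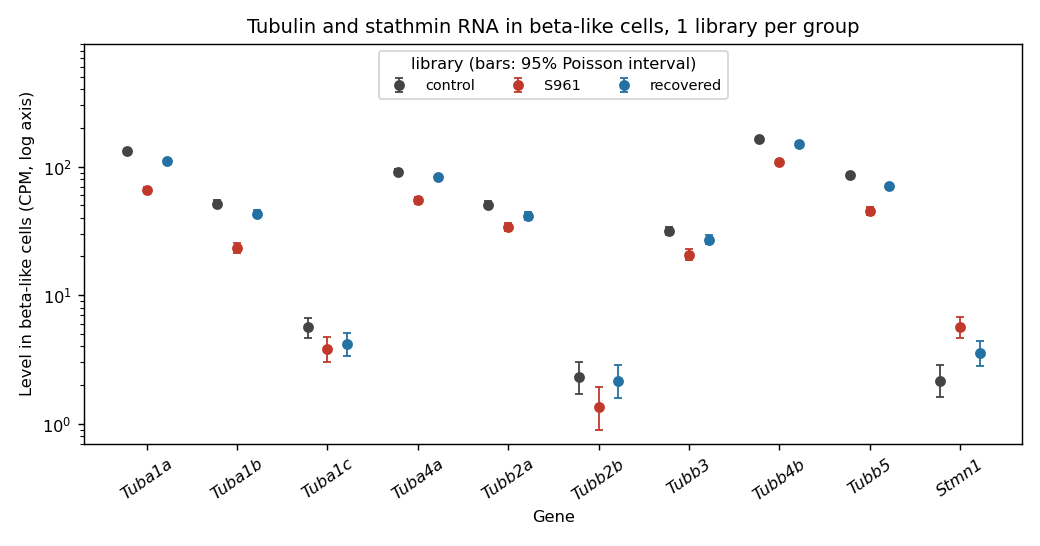
Levels of the 10 genes in beta-like cells, in CPM on a log axis, with 1 point per library and exact Poisson 95% intervals for counting error. The S961 point is the lowest of the 3 for each of the 9 tubulins and the highest for Stmn1.

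Genes with at least 50 UMIs over the pair of libraries were measured, and the limit for a call was a level at least 25% higher or at least 20% lower. By that measure 9 of 9 tubulins were lower in S961 than in control, where 12.4% of all 11599 genes measured were lower; since that contrast was known when the members were listed, nothing is read from the count. Stmn1 was higher, as were 14.7% of all genes. For recovered over S961, 7 of 9 tubulins were higher, beside 14.1% of 11648 genes, with Tuba1c and Tubb2a under the limit, and Stmn1 was lower, beside 9.29%. Among the 7, the interval of Tubb2b (-0.02 to 1.39) included 0. This contrast uses the S961 library whose levels were known when the members were listed, so nothing is read from its counts either. For recovered over control, Tuba1c was the 1 tubulin counted as lower (-0.44, -0.84 to -0.04), beside 4.33% of 11588 genes, and Stmn1 was higher, beside 11.2%. The 8 other tubulins had ratios of -0.29 (Tubb2a and Tubb5) to -0.10 (Tubb2b) there, all below 0, and the interval of Tubb2b included 0. With only the cells that had 4 to 7% mitochondrial UMIs, 5 tubulins were counted as lower in recovered than in control, beside 5.07% of all genes.

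The make-up of the pool differed less between libraries than its share of all UMIs. Tuba1a held 46.9% (45.7 to 48.2) of alpha-tubulin UMIs in control beta-like cells, 44.7% (43.0 to 46.4) in S961 and 45.8% (44.5 to 47.2) in recovered. Tuba4a held 32.7% (31.5 to 33.8), 36.9% (35.2 to 38.6) and 34.5% (33.2 to 35.8). Tubb4b held 49.2% (48.1 to 50.3), 51.5% (50.1 to 53.0) and 51.5% (50.3 to 52.8) of beta-tubulin UMIs, and Tubb5 25.6% (24.6 to 26.6), 21.6% (20.4 to 22.8) and 24.2% (23.1 to 25.2). Tubb5 thus had its lowest share, and Tuba4a its highest, in the S961 library, with intervals apart from those of control, while the Tubb4b intervals of control and S961 overlapped. Tuba1b held 18.4% (17.5 to 19.4), 15.8% (14.6 to 17.1) and 17.9% (16.9 to 19.0) of alpha-tubulin UMIs. Alpha-tubulins were 45.5% (44.7 to 46.4) of all tubulin UMIs in control, 41.4% (40.3 to 42.6) in S961 and 45.3% (44.4 to 46.2) in recovered.

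**Figure D2:**
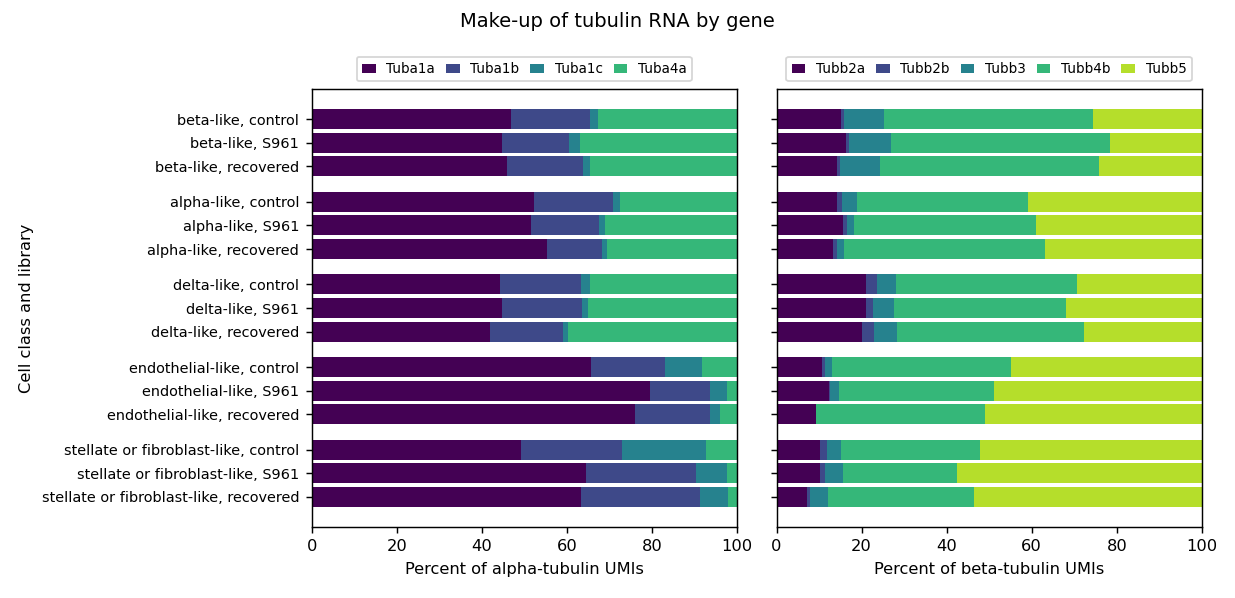
Percent of alpha-tubulin UMIs (left) and of beta-tubulin UMIs (right) held by each isotype, for each cell class and library. Tuba1a and Tubb4b hold the widest bands in the 3 beta-like bars, where Tubb5 holds 25.6%, 21.6% and 24.2%.

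Deeper cells and cells with fewer mitochondrial UMIs were commoner in S961, where the median beta-like cell had 4.52% mitochondrial UMIs against 6.93% in control and 7.26% in recovered, so the tubulin sum was also read within bins of both. Among beta-like cells with 5000 to 10000 UMIs it was 594 CPM (581 to 607) in control, 344 (314 to 376) in S961 and 482 (465 to 499) in recovered. Among those with 10000 to 15000 UMIs it was 679 (659 to 699.7), 345 (324 to 367) and 540.5 (526 to 555). Among cells with 4 to 7% mitochondrial UMIs it was 673 (657 to 688), 357 (346 to 369) and 559 (544 to 573). In each of the 5 depth bins and 4 mitochondrial bins the S961 level was below the control and recovered levels. The S961 interval overlapped neither, and the deepest control bin held only 15 cells. The bins divide the same values by which the members were chosen, so they describe those values only. The part of depth and of mitochondrial share in the ratios was not tested. Within control and recovered the tubulin sum was higher in deeper cells, from 454 CPM below 5000 UMIs to 717 at 15000 to 20000 in control. In S961 it was 259 CPM (230 to 292) below 5000 UMIs, 342 to 345 at 5000 to 20000 and 377 (366 to 388) above 20000.

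**Figure D3:**
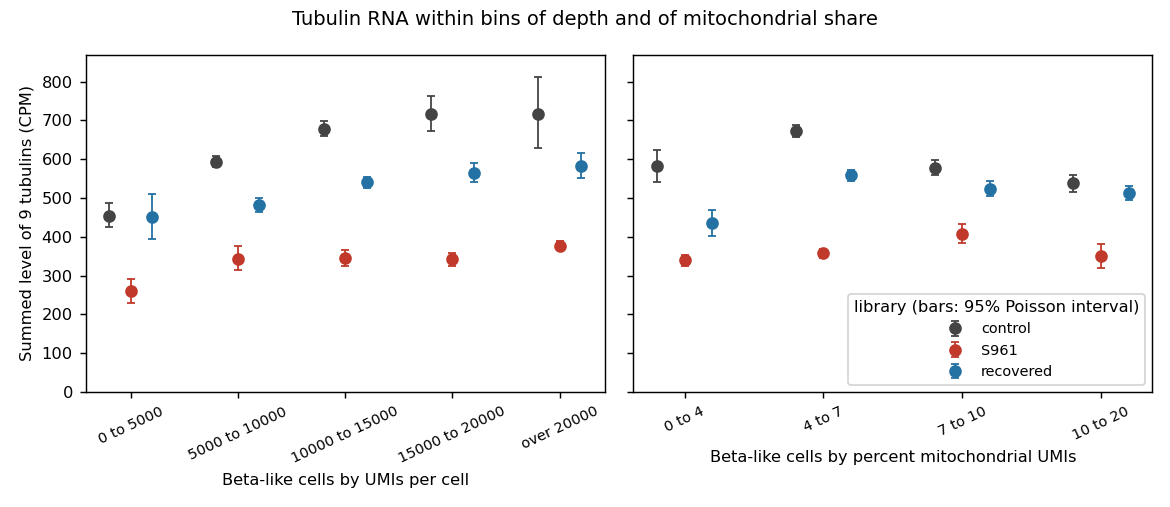
Summed level of the 9 tubulins in beta-like cells, in CPM, within bins of UMIs per cell (left) and of percent mitochondrial UMIs (right), with exact Poisson 95% intervals. The S961 points lie at 259 to 408 CPM, below the control and recovered points of every bin.

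Thinning every cell to 2000 UMIs, which left out 157 control, 77 S961 and 55 recovered cells, gave shares in the order of the CPM levels for each tubulin except Tuba1c. A Tuba1a UMI was found in 20.8% (19.3 to 22.4) of thinned beta-like cells in control, 11.2% (9.59 to 13.0) in S961 and 18.4% (16.8 to 20.2) in recovered. Before thinning the shares were 53.4%, 41.4% and 57.9%, and those of Tubb3 were 18.7%, 20.7% and 20.9%, lowest in control. For Tuba1b the thinned shares were 9.09% (8.05 to 10.2), 3.92% (2.97 to 5.07) and 7.53% (6.42 to 8.77). For Tubb3 they were 5.93% (5.08 to 6.87), 4.13% (3.15 to 5.31) and 4.41% (3.55 to 5.40), so recovered was nearly level with S961. The Tuba1c shares were 1.15% (0.788 to 1.62), 0.784% (0.392 to 1.40) and 0.743% (0.416 to 1.22), with recovered no higher than S961. Tuba4a gave a class to set beside these: in endothelial-like cells, where its level was the lowest of the 5 larger classes, a Tuba4a UMI was in 3.91%, 1.52% and 1.39% of thinned cells, at median depths of 3312, 6038 and 4306 UMIs before thinning. The same shares in beta-like cells were 16.0%, 9.12% and 14.8%.

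The beta-like cells fell mainly into 3 clusters. In the cluster led by Mlxipl and Ucn3 (1005 control, 744 S961 and 1048 recovered cells), S961 over control ratios ran from -1.21 (-1.37 to -1.05) for Tuba1a to -0.67 (-0.89 to -0.46) for Tubb5 among the 7 tubulins with at least 50 UMIs. In the cluster led by Pdyn, Ttyh1 and Igf1r (1152, 499 and 634 cells), Tuba1b was at 60.5, 25.7 and 55.3 CPM and Tubb5 at 95.1, 42.5 and 80.7 CPM. The cluster led by the heat shock genes Hspa1a and Hspa1b, with Mt2 and Ddit3 (772, 221 and 362 cells), showed another picture. There Tubb4b was at 175, 173 and 176 CPM, a ratio of -0.02 (-0.16 to 0.12) for S961 over control, and Tubb2a had a ratio of 0.02 (-0.28 to 0.31). The intervals of Tuba4a (-0.17, -0.39 to 0.05) and Tubb3 (-0.06, -0.43 to 0.31) included 0 as well. Tuba1a (-0.60, -0.81 to -0.38), Tuba1b (-0.69, -0.98 to -0.40) and Tubb5 (-0.59, -0.81 to -0.38) were below control in that cluster too. Between recovered and S961 the ratios in that cluster were -0.38 (-0.74 to -0.02) for Tubb2a and 0.02 (-0.13 to 0.18) for Tubb4b. Those of Tuba1a (0.29), Tuba1b (0.50), Tuba4a (0.49) and Tubb5 (0.58) had intervals above 0, while that of Tubb3 (0.10, -0.31 to 0.51) included 0. Whether the clusters differ in their response was not tested.

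Stmn1 RNA was scarce in beta-like cells, at 2.17 CPM in control, 5.62 in S961 and 3.53 in recovered, from 49, 121 and 79 UMIs. The log2 ratio was 1.37 (0.88 to 1.88) for S961 over control, -0.67 (-1.10 to -0.25) for recovered over S961 and 0.70 (0.17 to 1.248) for recovered over control. The S961 level was the high one, and 1 S961 cell held 15 of its 121 UMIs. Among cells with 4 to 7% mitochondrial UMIs, Stmn1 was at 2.12, 5.06 and 5.52 CPM, so the recovered level was there no lower than the S961 level (ratio 0.13). In each library the beta-like level was below that of the 4 other large classes: in S961, Stmn1 was at 6.60 CPM in alpha-like, 9.88 in delta-like, 35.9 in endothelial-like and 63.4 in stellate or fibroblast-like cells. After thinning, a Stmn1 UMI was in 0.395% (0.198 to 0.706) of beta-like cells in control, 0.784% (0.392 to 1.40) in S961 and 0.792% (0.454 to 1.28) in recovered, shares whose intervals overlap; unthinned they were 1.63%, 6.62% and 3.33%. Over the same beta-like cells, the summed level of 11 stellate or fibroblast markers was 0.707, 3.57 and 0.937 CPM, with 5, 3 and 4 of the markers at 0. Marker sums of other classes moved both ways. They were 804, 1478 and 848 CPM for 8 alpha-cell markers (none at 0), 58.0, 173 and 163 CPM for 9 acinar markers (none at 0), and 41.2, 66.8 and 46.2 CPM for 9 macrophage markers (3, 0 and 4 at 0). The sum of 6 delta-cell markers was lower in S961, at 155, 63.4 and 160.1 CPM with 0, 1 and 0 at 0. Their part in the Stmn1 result was not tested.

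Stmn1 is best known from dividing cells. Of 22 cell division genes, 1 reached 50 UMIs over the control and S961 beta-like cells (Rrm2, log2 ratio 0.12). Of the beta-like cells, 4.19% in control, 10.1% in S961 and 6.75% in recovered held a UMI of any of the 22, at the different depths given above. The libraries thus stood in the same order by this share as by Stmn1, and its part in the Stmn1 result was not tested. In the 123, 149 and 140 cells with such a UMI, Stmn1 was at 3.67, 10.3 and 10.1 CPM, which put S961 and recovered nearly level. These levels rest on few cells and have no interval here. Whether the S961 cell named above for its many Stmn1 UMIs was among them is not given here. In the cells without one it was at 2.09, 4.91 and 2.96 CPM. In the heat shock-led cluster Stmn1 was instead at 3.96, 3.10 and 5.21 CPM, from 23, 13 and 19 UMIs, with a ratio of -0.35 (-1.46 to 0.69) for S961 over control. Without that cluster the S961 over control ratio was 2.01.

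In alpha-like cells, which make glucagon (313 control, 461 S961 and 278 recovered cells), the tubulin sum was 556, 584 and 537 CPM. The leading genes of this class also held Ppy and Pyy, hormones of the pancreatic polypeptide (PP) cell. The sum of 4 PP-cell markers was 134097, 135252 and 123232 CPM, with none at 0, near that of its 8 alpha-cell markers, 147527, 165934 and 173655 CPM. The class thus carried PP-cell RNA, and its part in the values was not tested. None of the 6 members measured was past the limit for S961 over control, beside 20.3% of genes higher and 7.87% lower. Tuba1a was at 154, 169 and 166 CPM with a ratio of 0.13 (-0.08 to 0.35), and Tuba1b at 55.2, 52.0 and 39.3 CPM with a ratio of -0.09 (-0.44 to 0.28). Tuba1b (-0.40, -0.79 to -0.03) and Tubb2a (-0.34, -0.78 to 0.08) were lower in recovered than in S961, beside 15% of genes, and none of the 6 was higher, beside 10.5%. Tuba1b was also lower in recovered than in control (-0.49, -0.95 to -0.03), beside 10.7%, and none was higher, beside 16.5%. Tubb3 was at 8.98, 4.74 and 3.57 CPM in alpha-like cells from 14, 23 and 7 UMIs, so in control its alpha-like level was below its beta-like level.

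In delta-like cells, which make somatostatin (377, 355 and 234 cells), the sum was 667, 586 and 569 CPM, a log2 ratio of -0.19 (-0.29 to -0.09) for S961 over control. Of 8 members measured, 1 was lower (Tubb4b, at 156, 125 and 140.2 CPM, -0.32, -0.54 to -0.11) and none was higher, beside 8.7% and 24.3% of genes. For recovered over control, Tuba1a (-0.34, -0.61 to -0.07) and Tuba1b (-0.40, -0.83 to 0.02) were lower, beside 9.99%, and none of 7 was higher, beside 14.1%. Between recovered and S961 none of 8 was past the limit, beside 8.84% higher and 19.3% lower. Tubb2a was at 77.0, 64.8 and 64.3 CPM, above its beta-like level in each library. The delta-like cells carried insulin UMIs at 8.03%, 0.908% and 7.82%, and the alpha-like cells at 3.68%, 0.727% and 1.80%. In the delta-like cells the sum of the 4 PP-cell markers was 70989, 99097 and 69514 CPM, with 1, 0 and 1 of them at 0, beside 66788, 90109.9 and 65025 CPM for 6 delta-cell markers. The part of the insulin RNA and of the PP-cell markers in the tubulin values was not tested.

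Endothelial-like cells (156, 215 and 81 cells) held about the same tubulin sum in the 3 libraries, 1115, 1167 and 1129 CPM, above that of the endocrine classes. Tuba1a was at 284, 355 and 353 CPM and was the 1 of 7 measured members higher in S961 (0.32, 0.08 to 0.57), beside 27.1% of genes. Tuba1c was the 1 lower (37.2, 18.0 and 11.3 CPM from 24, 28 and 5 UMIs, -1.05, -1.89 to -0.20), beside 11.5%. Tubb2b had 3, 1 and 0 UMIs in these cells and Tubb3 7, 25 and 0, with 11 of the 25 in 1 cell; a count of 0 among 441952 UMIs allows up to 3. Tuba1b (0.37, -0.22 to 0.94) and Stmn1 (0.53, -0.23 to 1.26) were higher in recovered than in S961, beside 16.1%, and Tubb2a (-0.55, -1.20 to 0.06) was lower, beside 18.6%. All 3 of these intervals included 0. Between recovered and control none of 5 measured members was past the limit, beside 24.3% higher and 11.8% lower. Insulin UMIs made up 5.74%, 0.788% and 1.53% of the endothelial-like class. The sum of 11 stellate or fibroblast markers there was 2007, 3709 and 2645 CPM, with 7, 5 and 4 of them at 0, and that of 9 acinar markers 135, 842 and 396 CPM, with none at 0. The part of these in the tubulin values was not tested.

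Stellate or fibroblast-like cells, the collagen-making stromal class (94, 207 and 51 cells), had the highest tubulin sum of these classes and one that was higher in S961: 1839.8, 2912 and 2248 CPM. Of 9 members measured, 5 were higher in S961 than in control, beside 41.6% of genes, and 2 were lower, beside 14.2%. Tuba1a was at 306, 701 and 646 CPM (1.20, 0.89 to 1.52), Tubb5 at 635, 1051 and 659 CPM (0.73, 0.51 to 0.95) and Tuba1b at 148, 279 and 285 CPM (0.91, 0.47 to 1.39). Tubb3 (39.5, 79.0 and 50.7 CPM) and Tubb2a (125, 188 and 88.6 CPM) were the other 2 that were higher, and Tuba1c and Tuba4a were lower. The interval of Tuba4a (-1.78 to 0.11) included 0. Tuba1a and Tuba1b thus stayed high in recovered cells, where Tubb5 and Tubb2a were near or below their control levels. Of 8 measured members, 4 (Tubb2a, Tubb3, Tubb5 and Stmn1) were lower in recovered than in S961, beside 37.1%, and none was higher, beside 18.3%. The intervals of Tubb3 (-1.49 to 0.11) and Stmn1 (-1.44 to 0.29) included 0. Of 7 cell division genes measured in this class, 5 were lower in recovered than in S961 and none higher, with a median of -1.36 beside -0.15 for all genes, and 3 were higher and 1 lower in S961 than in control. Of 6 measured members, Tuba1a (1.08) and Tuba1b (0.94) were higher in recovered than in control, beside 32.6%. Tuba1c (-0.87) and Tubb2a (-0.50) were lower, beside 19.2%, and the interval of Tubb2a (-1.26 to 0.25) included 0. Insulin UMIs made up 10.4% of this class in control, 1.41% in S961 and 2.79% in recovered, median depths were 2169.5, 5560 and 4663 UMIs, and the part of these and of the cell division genes in the ratios was not tested.

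**Figure D4:**
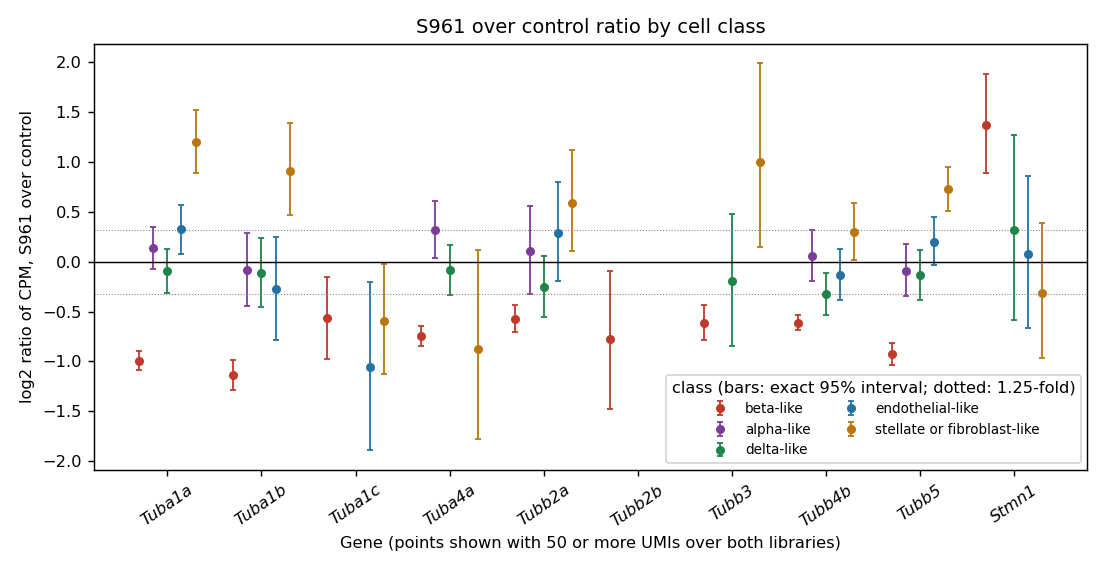
Log2 ratio of CPM, S961 over control, for each gene in 5 cell classes, with exact 95% intervals for counting error; genes under 50 UMIs over both libraries are left out and dotted lines mark the limit for a call. The beta-like points of the 9 tubulins lie between -1.14 and -0.56, and stellate or fibroblast-like points of Tuba1a, Tuba1b, Tubb2a, Tubb3 and Tubb5 lie between 0.59 and 1.20.

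Some isotypes stood at other levels in other classes. Tuba4a was at 91.6, 54.6 and 82.9 CPM in beta-like cells (control, S961 and recovered), 81.4, 101 and 91.8 in alpha-like and 104, 97.9 and 99.6 in delta-like cells. In endothelial-like cells it was at 35.7, 10.3 and 18.1 CPM and in stellate or fibroblast-like cells at 46.1, 25.1 and 22.2 CPM. Its levels in these non-endocrine classes were thus below those of the 3 endocrine ones in each library, and highest in control. The summed level of 10 beta-cell markers was also highest there, at 72669.5, 10713 and 19606 CPM in endothelial-like and 130111, 18249 and 33661 CPM in stellate or fibroblast-like cells, with at most 1 marker at 0, and its part in these values was not tested. Tubb3 was at 31.6, 20.7 and 27.1 CPM in beta-like cells and 16.9, 14.8 and 17.4 CPM in delta-like cells. In stellate or fibroblast-like cells it was at 39.5, 79.0 and 50.7 CPM, and in control its interval of 20.4 to 69.0 overlapped that of the beta-like cells, 29.3 to 34.0. Tubb5 exceeded Tubb4b in the stromal class (635 against 398 CPM in control), while Tubb4b exceeded Tubb5 in control beta-like (165 against 85.8) and delta-like cells (156 against 107). UMIs of the 3' assay count RNA ends and do not scale with transcript length. How well each isotype's end was captured, and how reads shared by several copies were counted, was not tested, so levels of different genes are given here as counted. The ductal-like cells, only 7, 18 and 20 in number, had tubulin sums of 2838, 2866 and 2659 CPM.

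Other genes of the microtubule system stood mostly within the limit in the same beta-like cells. Over 10 lists holding the tubulin folding cofactors, the chaperonin, prefoldin, the enzymes that modify tubulin, lattice and end binding proteins, severing enzymes, kinesins, dynein and dynactin, nucleation factors and Ttc5, 104 of 110 genes were measured for S961 over control. Of these, 8 were higher, 6 lower and 90 neither, beside 14.7% higher and 12.4% lower of all 11599 genes, and their median log2 ratio of -0.02 was that of all genes. When CPM was taken per cell and averaged, in place of summed UMIs, the split was 5 higher and 22 lower of 104, beside 11.9% and 26.4% of all genes, whose median was then -0.12. In cells with 5000 to 15000 UMIs, a window chosen after seeing the data, it was 27 higher and 7 lower of 103, beside 29.6% and 11.9%, with the median of all genes at 0.13. It was 11 and 13 of 96 in thinned cells, beside 11.8% and 24.6%, and 19 and 9 of 103 in cells with 4 to 7% mitochondrial UMIs, beside 19.5% and 12.2%.

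The counts of the single lists are given beside the same background, 14.7% of all genes higher and 12.4% lower, and none is read as particular to its list. None of the 6 tubulin folding genes passed the limit; Tbcb, a cofactor that handles alpha-tubulin, was at 115 CPM in control and 94.2 in S961, a ratio of -0.29 (-0.37 to -0.20). Of 7 chaperonin subunits, the ring that folds new tubulin and actin, Cct3 was lower (-0.33), and of 6 prefoldin subunits, which hand over the unfolded chain, Pfdn2 was lower (-0.39). Among 13 measured tubulin enzymes, the acetyltransferase Atat1 (-0.50) and the ligase-family gene Ttll4 (-0.35) were lower and Ttll1 (0.63) was higher. Dcx (0.54), Map1a (0.54) and Tppp3 (0.53) were the 3 higher genes among 23 lattice and end binding proteins, and none was lower. The intervals of Ttll4 (-0.79 to 0.08) and of Map1a (-0.32 to 1.42) included 0. The kinesin heavy chain Kif5b, a motor of insulin granules, was at 460.3 and 381 CPM (-0.27), and the kinesin Kif3a (0.41) was the 1 higher of 13. None of 4 severing genes was past the limit. Dync1i1 (0.61) and Dync1li1 (0.36) were higher and Ndel1 (-0.33) lower among 18 dynein and dynactin genes, and Cdk5rap2 (0.63) higher and Tubgcp6 (-0.47) lower among 13 nucleation genes. Ttc5 itself was at 20.6 and 19.0 CPM, a ratio of -0.12 (-0.31 to 0.08).

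Among 5 measured tubulins and stathmins outside the member list, Tubb6 was lower in S961 (-0.34, -0.57 to -0.12) and was also lower in recovered than in control (-0.64, -0.87 to -0.41). Stmn3, a neuronal relative of stathmin, was at 39.3 CPM in control, 61.9 in S961 and 46.5 in recovered. Its S961 over control ratio was 0.65 (0.53 to 0.78), and it rested on far more UMIs (890, 1333 and 1042) than Stmn1. Tubb4a (-0.22) and the epsilon-tubulin Tube1 (0.02) were within the limit, from 29 to 38 UMIs per library.

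**Figure D5:**
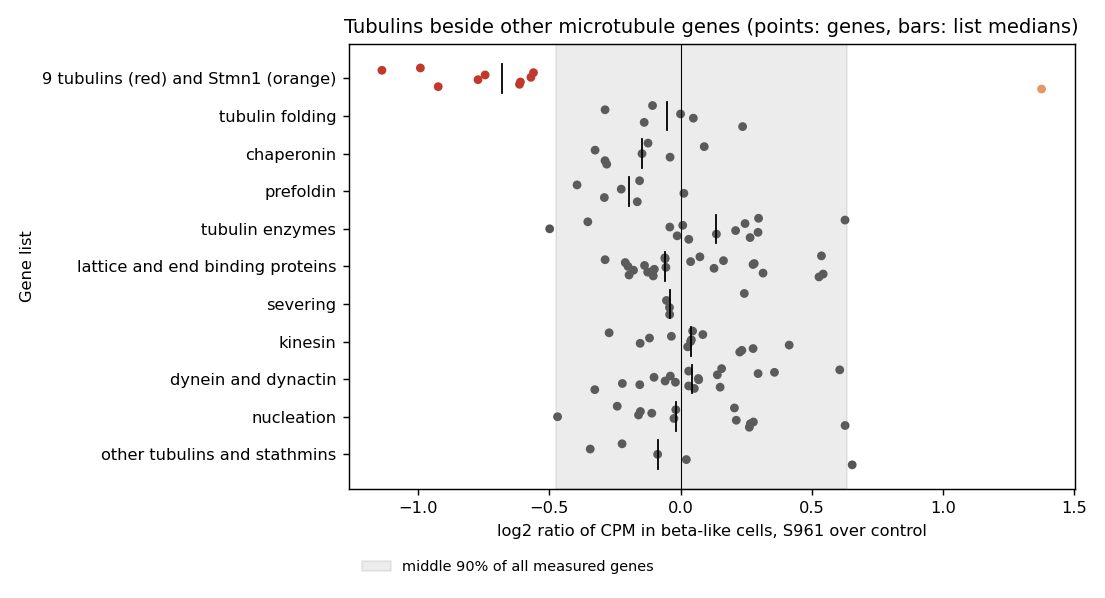
Log2 ratio of CPM in beta-like cells, S961 over control, for the 9 tubulins (red), Stmn1 (orange) and the measured genes of 10 lists, the tubulins and stathmins outside the members among them and Ttc5 left out (grey points; bars are list medians; the shaded band holds the middle 90% of all genes measured). The 9 tubulins lie below the band's lower edge of -0.48 and Stmn1 above its upper edge of 0.63.

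The coding start shown for the members was looked for in all 21407 coding genes of the table: a start codon, then CGN, AGA or AGG, then GAA or GAG. It was present in 42 genes (0.196%), of which 16 are alpha- or beta-tubulins and 26 are other genes. Of 11 tubulins with this start that were measured in beta-like cells, 10 were lower in S961 and none was higher, and these include the 9 members. The members were listed with this contrast known, so nothing is read from that count. Outside the member list were Tubb6 (-0.34), which was lower, and Tubb4a (-0.22), which was within the limit. Of 17 measured other genes with the same codons, 4 were lower and 3 higher, with a median log2 ratio of 0.12, beside 12.2% lower and 14.0% higher among 10995 measured coding genes. In recovered against S961, 8 of the 11 tubulins were higher and none was lower, and of the 17 others 3 were higher and 3 lower, beside 13.8% higher and 8.67% lower among 11036 measured coding genes. The pattern was widened from its first form after the members' sequences had been read, so it is a description of these starts. The tubulin counts of both contrasts are not read as support for a link with the start. The pattern covers 3 codons only, and whether the 26 other genes carry all that Ttc5 reads was not tested.

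Promoters were available for 8 of the 10 members (RefSeq, GRCm38.p6), the exceptions being Tubb2b and Stmn1. Since the 9 tubulins had ratios of 1 sign, the 250 bases before the start are shown for Tubb4b and Tubb2a, the most abundant in control beta-like cells of the members whose window also ends before the gene in the GENCODE annotation. They were chosen after the motifs had been counted. Capitals mark CCAAT on either strand.
Tubb4b: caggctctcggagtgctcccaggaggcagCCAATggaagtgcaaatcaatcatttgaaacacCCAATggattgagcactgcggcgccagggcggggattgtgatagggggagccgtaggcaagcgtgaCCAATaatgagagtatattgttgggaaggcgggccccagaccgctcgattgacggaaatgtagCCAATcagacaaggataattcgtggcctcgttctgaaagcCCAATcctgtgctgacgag
Tubb2a: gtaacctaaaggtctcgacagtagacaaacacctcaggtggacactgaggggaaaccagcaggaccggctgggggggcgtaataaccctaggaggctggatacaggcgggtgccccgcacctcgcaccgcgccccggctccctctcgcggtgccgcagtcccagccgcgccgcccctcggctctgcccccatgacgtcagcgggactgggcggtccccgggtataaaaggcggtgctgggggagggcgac
The first window is chr2:25224703-25224952 and the second chr13:34078009-34078258, both on the minus strand. The Tubb4b window held CCAAT 5 times and the Tubb2a window did not hold it. In windows of 300 bases, both strands searched, CCAAT was in 5 of 8 tubulin promoters (Tuba1a, Tuba1c, Tubb3, Tubb4b and Tubb5), beside 37.4% of 32851 promoters. The letters GGGCGG were in 7 of 8, beside 35.7%, and TATAAA in 2 of 8 (Tubb2a and Tubb4b), beside 13.6%. The heat shock element core GAANNTTC was in none, beside 7.86%.

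The genes most like Tuba1b and Stmn1, the members with the lowest and the highest S961 over control ratio, were sought by the Pearson correlation of log2(CPM + 10) over 19 profiles, each a named class of at least 50 cells in 1 library. For Tuba1b they were Tmem167 (0.92), Mcm5 (0.92), Eif5a (0.91), Mrpl18 (0.91) and Prdx3 (0.90), among 6582 genes. For Stmn1 they included Mrps7 (0.93), Anp32b (0.93), Ezh2 (0.92) and Lyar (0.91). Among the members themselves, Tubb4b and Tubb5 had the closest profiles (0.94), Tuba1b and Tubb5 followed (0.90), and Tuba4a ran against Tubb5 (-0.63). Profiles from 1 library share its depth and its free RNA, so these values describe the profiles.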

How the data were processed

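The deposited values are counts: whole numbers of UMIs per gene and barcode, which the authors made with Cell Ranger (no version given) on mm10, per the submitters' processing notes. Barcodes were assigned to libraries by the suffix in the labels. The filter asked for 500 genes or more and a mitochondrial share of 20% or less (4270 control, 3507 S961 and 3537 recovered), and Scrublet calls (3, 77 and 24; expected rate 0.06) were left out. Cells were scaled to 10000, and reduced to 2000 variable genes without the members. Leiden clusters (leidenalg 0.10.2, resolution 0.5) came from a graph of 15 neighbours over 30 principal components in scanpy 1.11.5. Clusters were named from 15 marker sets; the rules that kept pseudogene-led and shallow clusters unnamed, and the least marker score of 0.6, were set after seeing the clusters.

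UMIs were summed per class and library and scaled to CPM. Ratios carry exact conditional binomial (Clopper-Pearson) intervals, shares Clopper-Pearson intervals and levels Poisson intervals, all at 95% and for counting error only; a count of 0 was set to 3 for a ratio. The ratio script was tested on simulated data. There was 1 library per group, so no p-value was computed. The members and lists were chosen with earlier results of these data known. Besides the 10 members, genes named are drawn from the 2 highest and 2 lowest measured genes of each list and the 5 genes most like the members with the highest and lowest ratio; Tppp3, outside that rule, is named after its value was seen. A gene that the rule would name is not reported here. Alternatives changed the filter, scaling, depth, doublets, clustering and cell set. The work ran in Python 3.11.15 with scipy 1.17.1, numpy 2.4.6 and pandas 2.3.3.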

Additional observations from a re-analysis of the deposited data

Results flagged for a closer look

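Several members had ratios past the limit for a call (25% higher or 20% lower) in opposite directions in beta-like cells and in another class. None of these differences between classes was tested. For S961 over control, Tuba1a was at -0.99 in beta-like cells, against 0.32 in endothelial-like and 1.20 in stellate or fibroblast-like cells. Tuba1b was at -1.14 in beta-like cells and 0.91 in stellate or fibroblast-like cells. The same pair of classes gave -0.57 and 0.59 for Tubb2a, -0.61 and 1.00 for Tubb3, and -0.92 and 0.73 for Tubb5. Of all measured genes, 12.4% were lower in S961 in beta-like cells. In endothelial-like cells 27.1% of genes were higher, with a median ratio of 0.11 over all genes. In stellate or fibroblast-like cells 41.6% were higher, with a median of 0.21. The part of these shares and medians in the contrast was not tested.

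In the comparison of recovered with S961, Tuba1b was at 0.88 in beta-like cells and -0.40 in alpha-like cells. Tubb3 was at 0.39 in beta-like and -0.64 in stellate or fibroblast-like cells, and Tubb5 at 0.63 and -0.67. Stmn1 was at -0.67 in beta-like and 0.53 in endothelial-like cells. The interval of the second class included 0 for Tubb3 (-1.49 to 0.11) and Stmn1 (-0.23 to 1.26). Of all measured genes in this comparison, 14.1% were higher and 9.29% lower in beta-like cells. In alpha-like cells 15% were lower, in stellate or fibroblast-like cells 37.1% were lower and in endothelial-like cells 16.1% were higher. The stromal class had 94 control cells at a median depth of 2169.5 UMIs, the shallowest of the compared classes.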

How the results depend on the processing

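Over 14 alternatives the summed tubulin ratio for S961 over control ranged from -0.94 to -0.71, and that of Stmn1 from 1.23 to 2.01 (2.01 without the heat shock-led cluster). Values of the tubulin sum that moved beyond counting error were as follows. For S961 over control it was -0.91 in cells with 4 to 7% mitochondrial UMIs, -0.94 without the heat shock-led cluster, -0.85 in cells with 5000 to 15000 UMIs and -0.71 with an insulin-rich pseudogene-led cluster counted as beta-like. Between recovered and S961 the first, second and last of these gave 0.64, 0.68 and 0.48. For recovered over control it was -0.18 with CPM averaged over cells, -0.25 with a stricter filter (1000 genes, 10% mitochondrial), -0.27 in the mitochondrial window, -0.26 without the heat shock-led cluster and -0.27 in the depth window. Stmn1 for recovered over S961 turned to 0.13 in the mitochondrial window. In the same contrast Tuba1c ranged from -0.08 to 0.39, below 0 in 4 of the 14 alternatives, and Tubb3 from 0.05 to 0.67. The depth window and the added cluster were chosen after seeing the data. The cause of these shifts was not tested.

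Tubulins lower in S961 numbered 7 to 9 and those higher in recovered than in S961 5 to 9 under each alternative run. As above, nothing is read from these counts. Over the alternative cell sets and scalings, 11.3% to 26.4% of all measured genes were lower in S961. The share higher in recovered than in S961 ran from 10.5% to 32.0%. Not every alternative measured all 9 tubulins: in thinned cells Tuba1c and Tubb2b fell under the minimum of 50 UMIs. Tubulins lower in recovered than in control, 1 as reported, numbered 5 in the mitochondrial window, 4 in the depth window and with the stricter filter, and 3 without the heat shock-led cluster. Beside these counts, in the same order of settings, 5.07%, 4.67%, 4.31% and 4.07% of all measured genes were lower. Microtubule list genes lower in S961, 6 as reported, numbered 22 with CPM averaged over cells and 13 in thinned cells. Those higher, 8 as reported, numbered 5 with CPM averaged over cells, 19 in the mitochondrial window and 27 in the depth window. The shares of all genes that belong beside these list counts are given above. No paired analysis was possible because each group held 1 library. Tubb2b, Tuba1c and Stmn1 are limited by their UMI counts.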

Other observations

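Cells kept out of the beta-like class gave the following tubulin sums. In a pseudogene-led cluster rich in insulin RNA (218 control, 213 S961 and 276 recovered cells, with insulin genes at 56.7%, 54.0% and 56.8% of UMIs) the 9 tubulins were at 411, 449 and 384 CPM, a log2 ratio of 0.13 (-0.01 to 0.27) for S961 over control. Stmn1 was at 16.5, 19.7 and 15.9 CPM there, above its level in the beta-like cells of each library. In a further pseudogene-led cluster (97, 99 and 99 cells) the sum was 990.4, 1170.2 and 1137 CPM, a ratio of 0.24 (0.02 to 0.47), and Stmn1 was at 96.0, 83.7 and 36.2 CPM from 22, 41 and 13 UMIs. In an unnamed shallow cluster (21, 121 and 114 cells) the tubulin sum was 753, 344 and 483 CPM, a ratio of -1.13 (-1.54 to -0.70). Barcodes with over 20% mitochondrial UMIs (5818, 1831 and 4007) held 239, 160.4 and 199 CPM of tubulin RNA, a ratio of -0.58 (-0.71 to -0.45).

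Classes with few cells in some library were not compared. B-like cells (1 control, 23 S961 and 64 recovered) had tubulin sums of 1982 CPM in S961 and 1785 in recovered, and T- or NK-like cells (3, 30 and 142) of 831 and 964 CPM in these libraries. Macrophage-like cells (22, 81 and 18) had 805, 702 and 628 CPM. Acinar-like cells (6, 107 and 36) had 546 CPM in S961 and 893 in recovered, and Stmn1 was at 36.5 CPM in the S961 ones.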
